A study of Mus musculus with 24 samples.

Results

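Adult mouse L4 and L5 dorsal root ganglia from animals with a peripheral lesion were compared with the same ganglia from sham operated animals, across all genes. The libraries were chosen by their titles, 3 labelled peripheral lesion and 3 labelled sham operated, of 24 libraries in all. The other libraries of the series held ganglia of E12.5 and E17.5 embryos and adult neurons cultured on laminin for 6, 12, 24 and 36 h. The design text calls the lesioned ganglia conditioned, and the series title concerns the calcium channel subunit gene Cacna2d2 and axon regeneration. Which nerve was lesioned and how, the interval until collection, the strain, sex and age of the animals, and which animals a library came from are not given in the labels. Where 3 libraries of a group are called replicates, p-values therefore measure the spread between these libraries, which may be technical. One protocol text, which names cell sorting, is attached to all 24 libraries, and whether it applied to the operated ganglia is not stated.

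The neurons of a dorsal root ganglion send an axon branch to skin, muscle or viscera and another into the spinal cord. A lesion of the peripheral branch is the standard model of a conditioning lesion, after which the neuron switches from a program of transmission to one of axon growth. Known parts of that switch are the transcription factors Atf3, Jun, Sox11 and Stat3, growth proteins such as Gap43 and Sprr1a, and a change of peptides in which substance P and CGRP give way to galanin and neuropeptide Y. Injured sensory neurons are also known to release Csf1, and macrophages and satellite glia around them respond.

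The deposited values, called normalized values here, came out as whole multiples of 1 step per library. They were therefore read as read counts over 1 factor per library, a scaling that the labels do not state, with a recovered depth of 16.2, 7.45 and 21.0 M reads in the lesion libraries and 12.7, 17.1 and 21.8 M reads in the sham libraries. A gene was tested where at least 3 of the 6 libraries reached a value of 10, which left 14556 of 20782 genes. A gene under 10 in all sham libraries passed only through its lesion values and could be called only as a rise. Fgf3, Clcf1, Gdnf and Ucn below are among such genes. The reverse holds for a gene under 10 in all lesion libraries. The first principal component of the tested genes, with 69.8% of the variance, separated the groups. Lesion replicate 2, the shallowest library, lay nearest to sham: it was the lowest lesion library for 408 of the 578 genes that rose by at least 1 on the log2 scale, and the highest for 108 of the 194 that fell by at least 1. The titles carry a number in brackets whose meaning the labels do not give, 74, 75 and 124 for lesion and 69, 70 and 123 for sham. In the pair of higher-numbered libraries, 578 of those 578 genes were higher in lesion and 193 of those 194 were lower. That pair was part of the fit that chose these genes, so the counts are a description and not a separate check. Markers of the labelled neurons were abundant, and so were markers of other cells of a ganglion, since summed values of the myelinating Schwann cell list ran from 79726 to 107713 in lesion and from 84253 to 104462 in sham libraries. The samples therefore held glia and other cells besides the DRG neuron named in the labels, and in bulk samples fewer cells of a type and less RNA per cell cannot be told apart. Skeletal muscle markers summed to 42.6 to 179 in lesion and 113 to 234 in sham libraries. Of 10 markers of spinal cord oligodendrocytes and astrocytes, 5 were tested, of which 4 rose and 1 fell (24-library spread, 3 rose and 1 fell). Their sum over the 10 was 572 to 796 in lesion and 485 to 554 in sham libraries, and the oligodendrocyte genes Mog, Mobp, Olig1 and Olig2 were at most 5.01 in any library. Y-linked genes were at or near 0 in all 6 libraries and Xist, the RNA of the inactive X, was at least 5830.0.

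After lesion, 3043 genes rose (20.9% of the 14556 tested) and 2947 fell (20.2%), at an adjusted p under 0.05 in limma with Benjamini-Hochberg adjustment, while 8566 were not called. The median log2 change over all genes tested was -0.01. The groups did not overlap for 3824 tested genes with lesion above sham (26.3%) and for 3825 with lesion below sham (26.3%). Separate groups, stated for many genes below, were therefore common. Rises were larger than falls. A log2 change of at least 1 was reached by 578 rises (3.97% of the genes tested) and by 194 falls (1.33%). A change of at least 2 was reached by 138 rises and by 7 falls, and one of at least 4 by 19 rises and by 0 falls. With 1 spread estimated over all 24 libraries of the series, 1541 genes rose and 1052 fell, of which 1537 and 1049 were among the calls of the 6-library fit. That setting, called the 24-library spread below, lowered the counts of most gene lists, and its counts are given beside them. List counts are to be read beside the shares of all genes tested, 20.9% rising and 20.2% falling. Those of the 24-library spread are to be read beside 1541 rises and 1052 falls of 14556 genes. Numbers that stand in parentheses after a gene below are log2 changes, lesion minus sham, with the SE after ±, and the sizes given after rose by or fell by are on the same scale. The sources used here do not say how reads that match several near-identical copies were assigned, which makes the values of Mrgpr, Serpina3, H2, C4, Sprr2 and tubulin family members uncertain.

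**Figure D1:**
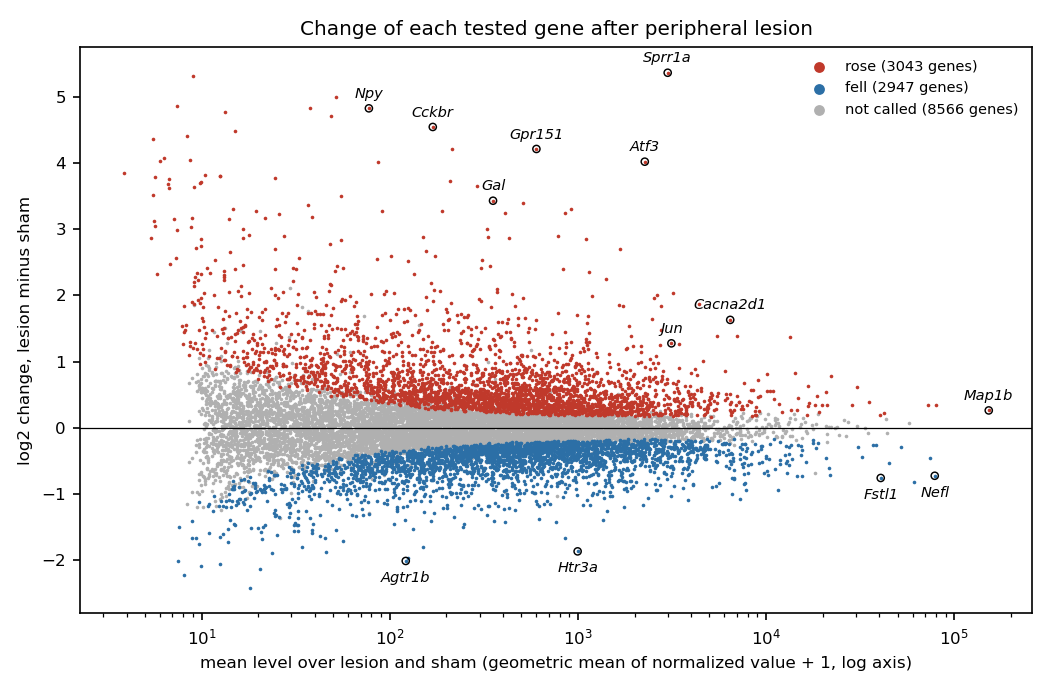
Log2 change, lesion minus sham, of each of the 14556 tested genes against its mean level in the 6 libraries (log axis). Red points rose, blue points fell and grey points were not called. The largest changes are rises, up to 5.37 for Sprr1a, and genes of high level such as Map1b and Nefl changed by less than 1.

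The largest rise was that of Sprr1a, a small proline-rich protein of the cornified skin envelope that axotomized neurons also make. It had normalized values of 23731, 14642 and 19037 in lesion ganglia, against 409, 355 and 643 in sham ganglia, a log2 change of 5.37 ± 0.30 (SE, limma adjusted p = 1.5e-04). Every lesion library lay far above every sham library, with lesion replicate 2 the lowest of its group. Atf3, the bZIP factor used as a marker of axotomized neurons, stood at 11051, 7089 and 9482 in lesion ganglia, against 524, 566 and 579.8 in sham ganglia (log2 change 4.02 ± 0.14, adjusted p = 1.7e-07). The sham libraries agreed closely for Atf3, and the groups were far apart. Ecel1, a membrane peptidase induced in damaged neurons, had 1177, 675 and 964 in lesion ganglia, against 45.3, 49.0 and 51.0 in sham ganglia (log2 change 4.21 ± 0.17, adjusted p = 4.2e-08). Gpr151, an orphan G protein-coupled receptor of habenular and injured sensory neurons, had 3329.8, 1849 and 2696 in lesion ganglia, against 133, 124 and 154 in sham ganglia (log2 change 4.22 ± 0.20, adjusted p = 2.2e-06).

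Of the 15 largest rises with separate groups and a lesion mean of at least 100, further ones were at low levels in sham ganglia. Fgf3, a secreted fibroblast growth factor, had 219.8, 152 and 223 in lesion ganglia, against 3.94, 5.85 and 8.60 in sham ganglia (log2 change 4.84 ± 0.26, adjusted p = 8.1e-08). Acvr1c, the type I activin and nodal receptor ALK7, had 289, 222 and 200.1 in lesion ganglia, against 11.8, 11.7 and 3.44 in sham ganglia (log2 change 4.71 ± 0.38, adjusted p = 1.1e-05). Cckbr, a receptor of cholecystokinin and gastrin, had 998, 665 and 808 in lesion ganglia, against 34.4, 33.6 and 33.3 in sham ganglia (log2 change 4.55 ± 0.14, adjusted p = 5.3e-10). For all of these, each lesion library was above each sham library, and the lowest lesion value was that of replicate 2 for Cckbr and Fgf3. Slc6a4, the serotonin transporter, reached 399, 252 and 343 in lesion ganglia, against 12.8, 14.6 and 36.7 in sham ganglia (log2 change 4.02 ± 0.37, adjusted p = 7.1e-05). Igfn1, an immunoglobulin and fibronectin domain protein known from muscle, reached 382, 219 and 276 in lesion ganglia, against 5.90, 7.31 and 11.5 in sham ganglia (log2 change 5.00 ± 0.25, adjusted p = 5.9e-08). Car3, a carbonic anhydrase, and Tmem88b, a membrane protein, rose by 3.65 ± 0.40 and 3.73 ± 0.16 (adjusted p = 0.0015 and 3.0e-08). Car3 averaged 984 ± 172 in lesion and 84.0 ± 45.2 in sham ganglia and Tmem88b averaged 760.2 ± 168 in lesion and 56.0 ± 8.96 in sham ganglia (SD, n = 3 each). Car3 is also abundant in fat, and Adipoq, adiponectin of fat cells, had 47.2, 155 and 9.83 in lesion ganglia, against 18.7, 2.92 and 12.0 in sham ganglia and was not called. The part of fat in the rise of Car3 was not tested. The remaining members of the 15, the peptides Npy, Crh, Gal and Nts, are described with their family. Adipoq was called without lesion replicate 3 (adjusted p down to 0.0275).

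**Figure D2:**
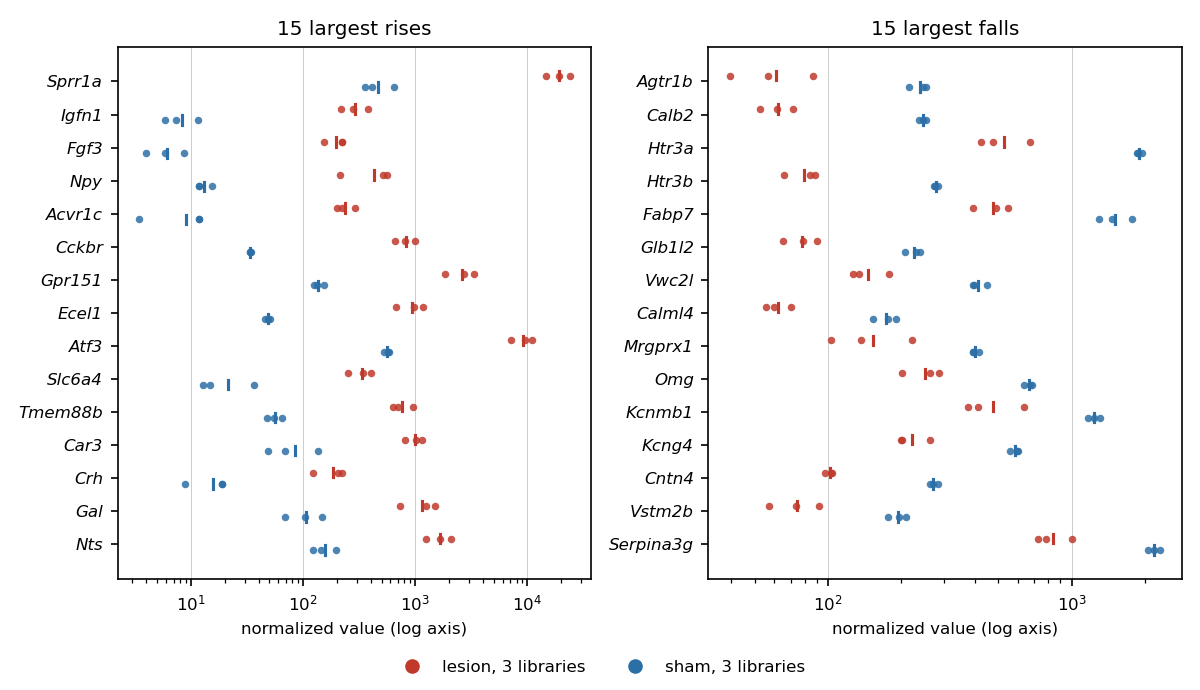
Normalized values (log axis) of the 15 genes with the largest rises and the 15 with the largest falls that were called, had separate groups and reached a group mean of at least 100. Points are libraries, 3 lesion (red, upper row of each gene) and 3 sham (blue, lower row), and short lines are group means. Rises span more than falls, and Sprr1a and Atf3 reach the highest lesion values of the rises.

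The upstream sequences of 7 genes that rose were chosen because each holds at least 1 of the motifs searched, and they are shown because AP-1 and C/EBP-ATF elements are the binding sites of Atf3, Jun and their partners, whose own transcripts rose. The 250 bases before the annotated start were taken from RefSeq (GRCm38.p6) and searched on both strands for the AP-1 letters TGANTCA, the cyclic AMP response element TGACGTCA and the C/EBP-ATF letters TGATGNAA. Matches are in capitals, the sequences run 5′ to 3′ on the strand of the gene, and no 2 matches overlap. Sprr1a lies at chr3:92485882-92486131 (minus strand), Srxn1 at chr2:152105274-152105523 (plus strand), Nts at chr10:102490419-102490668 (minus strand) and Plaur at chr7:24462233-24462482 (plus strand). Atf3 lies at chr1:191183334-191183583 (minus strand), Hrk at chr5:118169514-118169763 (plus strand) and Ucn at chr5:31138896-31139145 (minus strand).
Sprr1a: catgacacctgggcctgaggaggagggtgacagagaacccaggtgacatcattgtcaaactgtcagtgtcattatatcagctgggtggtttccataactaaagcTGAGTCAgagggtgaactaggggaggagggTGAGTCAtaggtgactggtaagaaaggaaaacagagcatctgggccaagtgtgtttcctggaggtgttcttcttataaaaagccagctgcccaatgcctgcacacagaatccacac
Srxn1: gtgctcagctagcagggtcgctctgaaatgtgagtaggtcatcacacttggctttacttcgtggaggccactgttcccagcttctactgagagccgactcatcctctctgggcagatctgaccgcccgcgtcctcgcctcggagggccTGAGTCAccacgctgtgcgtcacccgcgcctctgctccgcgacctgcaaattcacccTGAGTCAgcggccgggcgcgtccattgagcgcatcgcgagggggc
Nts: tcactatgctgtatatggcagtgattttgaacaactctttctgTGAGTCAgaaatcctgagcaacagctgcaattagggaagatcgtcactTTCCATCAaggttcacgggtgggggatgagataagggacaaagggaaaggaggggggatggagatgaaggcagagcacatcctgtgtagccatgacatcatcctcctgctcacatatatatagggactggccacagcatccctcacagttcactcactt
Plaur: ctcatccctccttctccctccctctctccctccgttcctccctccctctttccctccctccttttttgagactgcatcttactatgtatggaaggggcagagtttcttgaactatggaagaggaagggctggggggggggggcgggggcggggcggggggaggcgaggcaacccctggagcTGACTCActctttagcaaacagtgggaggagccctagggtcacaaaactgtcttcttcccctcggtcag
Atf3: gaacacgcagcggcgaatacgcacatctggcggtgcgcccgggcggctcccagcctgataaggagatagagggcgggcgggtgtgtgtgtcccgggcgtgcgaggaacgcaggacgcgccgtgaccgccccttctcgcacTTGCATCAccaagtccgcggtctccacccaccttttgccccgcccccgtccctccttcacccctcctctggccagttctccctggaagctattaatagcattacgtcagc
Hrk: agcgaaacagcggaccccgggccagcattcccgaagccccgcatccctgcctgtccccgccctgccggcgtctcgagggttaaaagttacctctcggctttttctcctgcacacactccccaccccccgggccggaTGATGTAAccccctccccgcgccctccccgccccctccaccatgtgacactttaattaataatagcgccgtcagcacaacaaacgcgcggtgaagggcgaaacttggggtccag
Ucn: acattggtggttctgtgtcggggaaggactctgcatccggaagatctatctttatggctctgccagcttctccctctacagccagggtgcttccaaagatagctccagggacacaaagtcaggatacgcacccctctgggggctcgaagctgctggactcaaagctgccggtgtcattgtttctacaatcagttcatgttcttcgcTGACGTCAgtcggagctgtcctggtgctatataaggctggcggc
Sprr1a and Srxn1 each hold AP-1 letters in 2 places, with first bases 146 and 116 before the start in Sprr1a and 102 and 45 before it in Srxn1. Nts holds AP-1 letters from base 207 and the C/EBP-ATF letters, read on the other strand, from base 159 before the start. Plaur, the urokinase receptor, holds AP-1 letters from base 69. Atf3 holds C/EBP-ATF letters on the other strand from base 110, Hrk holds them from base 114, and Ucn holds the cyclic AMP element from base 44. Of all 32851 upstream windows of the RefSeq table, 6.75% hold AP-1 letters, 1.55% the cyclic AMP element and 3.45% the C/EBP-ATF letters. AP-1 letters stood in 48 of the 417 matched genes that rose by at least 1 on the log2 scale (11.5%). They stood in 3 of 136 matched genes that fell by at least 1 (2.21%) and in 465 of 10794 matched genes tested (4.31%). The cyclic AMP element stood in 1.92% of the matched genes that rose by at least 1, in 1.47% of those that fell by at least 1 and in 2.7% of those tested. The C/EBP-ATF letters stood in 4.56% of the matched genes that rose by at least 1, in 3.68% of those that fell by at least 1 and in 2% of those tested. These are descriptions of letters in a window, with no test. Of the 15 largest rises, 12 were in the table, and Igfn1, Fgf3, Npy, Acvr1c, Cckbr, Ecel1, Slc6a4 and Gal hold none of the 3 motifs in this window, while Tmem88b, not shown, holds AP-1 letters from base 231.

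Of 7 falls of at least 2 on the log2 scale, the largest of -2.42, all but that of Agtr1b were of genes with a sham mean under 100. The 15 largest falls with separate groups and a sham mean of at least 100 are given here. Agtr1b, an angiotensin II receptor, had 39.5, 86.8 and 56.7 in lesion ganglia, against 215, 252 and 245 in sham ganglia (-2.01 ± 0.23, limma adjusted p = 6.0e-05). Htr3a, a subunit of the serotonin-gated channel, had 426, 676 and 475 in lesion ganglia, against 1938, 1868 and 1849.5 in sham ganglia (log2 change -1.87 ± 0.14, adjusted p = 8.0e-06). Its partner subunit Htr3b had 65.8, 88.5 and 83.8 in lesion ganglia, against 273, 281 and 275 in sham ganglia (log2 change -1.80 ± 0.13, adjusted p = 6.8e-07). Both subunits of the channel were lower by a factor of 3.59 and 3.48 of the group means, and the groups did not overlap. Calb2, the calcium-binding protein calretinin, averaged 62.1 ± 9.69 in lesion and 244 ± 7.03 in sham ganglia (log2 change -1.97 ± 0.14, adjusted p = 5.1e-07). Omg, a myelin glycoprotein that binds the Nogo receptor, averaged 249 ± 42.7 in lesion and 665 ± 25.8 in sham ganglia (log2 change -1.43 ± 0.12, adjusted p = 1.3e-06). Cntn4, an axonal adhesion molecule of the contactin family, averaged 101 ± 3.88 in lesion and 271 ± 10.1 in sham ganglia (log2 change -1.41 ± 0.11, adjusted p = 9.4e-07). Fabp7, a lipid-binding protein of satellite glia, averaged 477 ± 77.3 in lesion and 1510.4 ± 245 in sham ganglia (log2 change -1.66 ± 0.13, adjusted p = 6.2e-06). The other members of the 15 were Glb1l2, Vwc2l, Calml4, Mrgprx1, Kcnmb1, Kcng4, Vstm2b and Serpina3g, with log2 changes from -1.53 to -1.39.

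Among the transcription factors tied to axon regeneration, 25 of 36 tested members rose, 0 fell and 11 were not called, where the median of the list was 0.52 and that of all genes tested was -0.01 on the log2 scale. With the 24-library spread 17 rose and 0 fell. Sox11, an SRY-box factor of developing neurons, had 2687, 1588 and 2160.1 in lesion ganglia, against 290.3, 238 and 318 in sham ganglia (log2 change 2.90 ± 0.19, adjusted p = 1.2e-05). Jun, the AP-1 partner of Atf3, had 5744, 4063 and 4908 in lesion ganglia, against 2119, 1874 and 2028 in sham ganglia (log2 change 1.28 ± 0.11, adjusted p = 5.0e-06). In both genes the lowest lesion library lay well above the highest sham library. Stat5a and Nfil3, a cytokine-activated factor and a bZIP repressor, rose by 1.79 and 1.71. Smad1, which carries BMP signals, rose by 1.22, and Klf6, a Kruppel-like factor that favours axon growth, by 1.15. Stat3 rose by 0.46 ± 0.06, with values of 6052, 5977 and 5768 in lesion ganglia, against 4279, 4187 and 4486 in sham ganglia. Creb1 (0.05), Klf9 (0.12) and Nfe2l2 (-0.06) were not called, and Fosl1 was below the expression minimum.

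Of the immediate early genes, the first transcripts to respond to activity or stress, 19 of 29 were called as rises, 1 as a fall and 9 neither way (median 0.65). In the fit with the 24-library spread 14 rose and 0 fell. Beside Atf3 and Jun, the largest rises were those of Gadd45g, a stress sensor (1.46), Fosl2, an AP-1 subunit (1.29), Btg2, an antiproliferative gene (1.26), and Zfp36, which destabilizes cytokine messages (1.24). Fos had 209.8, 145 and 136 in lesion ganglia, against 107, 56.3 and 83.2 in sham ganglia (log2 change 1.01 ± 0.23, adjusted p = 0.00486). Egr1 rose by 0.73 ± 0.21, while Fosb (0.26) and Junb (0.23) were not called. The 1 fall was that of Dusp5, a phosphatase of ERK (-0.51). Dusp5 was not called under the 24-library spread or between the lower-numbered libraries alone. Egr1 lost its call without lesion replicate 1 or 2 or sham replicate 2 or 3 (adjusted p up to 0.12), and Dusp5 lost its call without lesion replicate 1 or 3 or sham replicate 1 or 3 (adjusted p up to 0.101).

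Of the growth effectors known from injured sensory neurons, 25 of 31 were called as rises, 3 as falls and 3 neither way (median 1.19), and under the 24-library spread 22 rose and 1 fell. Gap43, the growth cone protein, had 13147, 9330.0 and 11649 in lesion ganglia, against 4576, 4405 and 3989 in sham ganglia (log2 change 1.38 ± 0.11, adjusted p = 3.2e-06). Flrt3, an adhesion molecule of growing neurites, had 4951, 3335 and 4582 in lesion ganglia, against 648, 667 and 641 in sham ganglia (log2 change 2.70 ± 0.12, adjusted p = 1.9e-07). Gadd45a, which takes part in stress signalling and DNA demethylation, had 2285, 1528 and 1945 in lesion ganglia, against 339, 349 and 387 in sham ganglia (log2 change 2.40 ± 0.12, adjusted p = 3.2e-07). The groups were separate for all of these. Fst, the activin-binding protein follistatin, averaged 566 ± 156 in lesion and 62.9 ± 39.1 in sham ganglia, and Stmn4, a stathmin, averaged 799 ± 230.1 in lesion and 145 ± 39.1 in sham ganglia. Itga7, an integrin laminin receptor, averaged 5022 ± 1037 in lesion and 1269 ± 102 in sham ganglia, and Cdkn1a, the p53 target p21, averaged 5233 ± 1047 in lesion and 1442 ± 80.9 in sham ganglia. Smaller rises were those of Basp1 (0.52), Hspb1 (0.67) and Stmn2 (0.40). Nefl and Gpr149, an orphan receptor, were among the falls (-0.73 and -0.49). Arg1, Reg3b, Fgf2 and Inhba, also known from injured nerve, were below the expression minimum with lesion means of at most 14.6. The call of Gpr149 was lost under the 24-library spread, and that of Hspb1 between the lower-numbered libraries alone. Hspb1 lost its call without lesion replicate 1 or sham replicate 1, 2 or 3 (adjusted p up to 0.102).

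Peptides moved in both directions. Of 25 tested genes of neuropeptides and their processing, 10 rose, 12 fell and 3 were not called, and under the 24-library spread 7 rose and 8 fell. Npy, neuropeptide Y, had 512, 214 and 558 in lesion ganglia, against 11.8, 11.7 and 15.5 in sham ganglia (log2 change 4.83 ± 0.33, adjusted p = 5.2e-06). Gal, galanin, had 1254, 736 and 1486 in lesion ganglia, against 104, 68.7 and 148 in sham ganglia (log2 change 3.43 ± 0.39, adjusted p = 0.00188). Nts, neurotensin, had 2079, 1242 and 1651 in lesion ganglia, against 146, 198 and 122 in sham ganglia (log2 change 3.40 ± 0.23, adjusted p = 3.2e-05). In all of these peptides the lowest lesion value was that of replicate 2 and still lay above the sham libraries. The corticotropin-releasing family gave a pair of rises, Crh by 3.50 ± 0.30 and Ucn, urocortin, by 4.78 ± 0.37. Ucn rested on 260 reads in the 3 lesion libraries together, against 6 reads in the 3 sham libraries. Adcyap1, the precursor of PACAP, and Vgf, a secreted granin-like protein, rose by 0.97 and 1.48.

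Several peptides that mark nociceptors fell. Calca, the precursor of CGRP, had 4417, 5735 and 4899 in lesion ganglia, against 11191, 10617 and 9689 in sham ganglia (log2 change -1.07 ± 0.09, adjusted p = 2.2e-06). Tac1, the precursor of substance P, had 772, 1087 and 918 in lesion ganglia, against 2434, 2002 and 2145 in sham ganglia (log2 change -1.25 ± 0.12, adjusted p = 9.5e-06). The groups did not overlap for either. Calcb (-0.97), Nmb, neuromedin B (-1.15) and Cartpt (-1.55) also fell. So did genes of the dense-core granule, Scg2 (-0.94), Chga (-0.65) and Chgb (-0.38), and the convertases Pcsk1 (-0.53) and Pcsk2 (-0.44). Sst, somatostatin, was not called, at 33.3, 66.8 and 50.9 in lesion ganglia, against 88.6, 70.2 and 64.2 in sham ganglia, where the highest lesion value lay above the lowest sham value. Vip, a peptide of injured sensory neurons in rat, was at 0.385 on average after lesion and below the expression minimum. The calls of Chgb and Pcsk1 were lost under the 24-library spread. Sst was called without lesion replicate 2 (adjusted p down to 0.00654).

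Receptors of transmitters and peptides were split, as 22 of 53 fell, 13 rose and 18 were not called (median -0.21). Under the 24-library spread 4 rose and 9 fell. After Cckbr and Gpr151, rises included those of Cckar, a receptor of cholecystokinin (0.95), Adra2a (0.73) and Npy2r, a receptor of neuropeptide Y (0.54). Npy1r, another receptor of that peptide, was not called (-0.18). All opioid receptor genes tested fell. Oprd1, the delta receptor, had 117, 159 and 136 in lesion ganglia, against 323, 347 and 384 in sham ganglia (log2 change -1.36 ± 0.12, adjusted p = 3.3e-06). Oprl1, the nociceptin receptor, averaged 301 ± 27.4 in lesion and 712 ± 30.4 in sham ganglia (-1.24 ± 0.09), Oprm1, the mu receptor, averaged 110.4 ± 16.8 in lesion and 184 ± 6.90 in sham ganglia (-0.74 ± 0.13) and Oprk1, the kappa receptor, averaged 37.4 ± 12.9 in lesion and 62.7 ± 8.40 in sham ganglia (-0.78 ± 0.24). Serotonin receptors Htr4 (-1.16) and Htr7 (-0.92) and nicotinic subunits Chrna6 (-1.11), Chrnb3 (-1.11) and Chrna7 (-1.05) fell as well. The nicotinic subunit Chrna5, at a low level in sham ganglia and described at the end, rose (3.18). Npy2r, Oprm1 and Oprk1 were not called under the 24-library spread, and Oprk1 was not called between the lower-numbered libraries alone. Oprk1 lost its call without lesion replicate 3 or sham replicate 2 or 3 (adjusted p up to 0.0841). The transmitter and peptide receptors that rose numbered 8 without sham replicate 1.

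None of the 14 voltage-gated sodium channel genes tested rose, 9 fell and 5 were not called (median -0.31). These falls were small, and under the 24-library spread 0 rose and 1 fell. Scn10a, the nociceptor channel Nav1.8, had 7382, 12059 and 10181 in lesion ganglia, against 13322, 14676 and 14702 in sham ganglia (log2 change -0.56 ± 0.15, adjusted p = 0.0199). Scn1a, the Nav1.1 channel of large neurons, had 1841, 2072 and 1724 in lesion ganglia, against 3369, 3697 and 3769 in sham ganglia (log2 change -0.94 ± 0.08, adjusted p = 1.8e-06). Scn4b, a beta subunit, had 5452, 5799.7 and 4972 in lesion ganglia, against 7968, 8731 and 8461 in sham ganglia (log2 change -0.63 ± 0.07, adjusted p = 2.1e-05). The groups were separate for these genes, and Scn1a is the fall that remained under the 24-library spread. Scn9a (-0.31), Scn8a (-0.29), Scn7a (-0.31) and Scn4a (-0.61) fell, and Scn11a, the Nav1.9 channel, was not called (-0.26, adjusted p = 0.215). Scn3a, the embryonic Nav1.3 channel reported to rise in injured rat neurons, was not called, at 214, 175 and 201 in lesion ganglia, against 152, 164 and 169 in sham ganglia (log2 change 0.28 ± 0.12, adjusted p = 0.0686). The calls of Scn10a, Scn4b, Scn9a, Scn8a, Scn7a and Scn4a were lost under the 24-library spread, and those of Scn10a, Scn9a, Scn8a and Scn4a between the lower-numbered libraries alone. Scn10a lost its call without sham replicate 2 or 3 (adjusted p up to 0.0667). Scn11a was called without lesion replicate 2 (adjusted p down to 0.00214), and Scn3a was called without lesion replicate 2 (adjusted p down to 0.0256).

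Of 51 potassium channel genes, 29 fell, 4 rose and 18 were not called (median -0.36), and under the 24-library spread 1 rose and 15 fell. The falls were led by modifier and accessory subunits. Kcng4, a silent subunit of Kv2 channels, had 200.5, 262 and 199 in lesion ganglia, against 558, 595 and 602 in sham ganglia (log2 change -1.41 ± 0.11, adjusted p = 1.1e-06). Kcns3, Kcnv1 and Kcns1, further silent subunits, fell as well (log2 changes of -1.17, -1.04 and -0.86). Kcnip1 and Kcnip2, subunits of A-type channels, fell too (-1.22 and -0.88). Kcna2, the Kv1.2 pore whose loss raises excitability in rat sensory neurons, had 8319, 10809.5 and 7981 in lesion ganglia, against 12426, 14833 and 14299.9 in sham ganglia (log2 change -0.63 ± 0.11, adjusted p = 9.5e-04). Its partner Kcna1 was not called (-0.19, adjusted p = 0.0703). Among the rises were Kcnmb4, a subunit of BK channels (0.80), and Kcnk12, a K2P channel (0.68). Kcnmb1, a different BK subunit, fell by 1.42 ± 0.18. Kcnk12 was not called under the 24-library spread. Kcna1 was called without lesion replicate 2 (adjusted p down to 0.0307). The potassium channels that rose numbered 2 without lesion replicate 1 or 3 or sham replicate 1 or 2.

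Calcium channel subunits did not move one way, with 4 of 19 rising (21.1%), 3 falling (15.8%) and 12 not called. Over all genes tested 20.9% rose and 20.2% fell. Under the 24-library spread 3 of the subunits rose and 2 fell. Cacna2d1, an alpha2delta subunit bound by gabapentin, had 13552, 9572 and 11007 in lesion ganglia, against 3681, 3232 and 4038 in sham ganglia. Cacna2d2, the gene of the series title, had 204, 256 and 206 in lesion ganglia, against 322, 314 and 337 in sham ganglia (log2 change -0.55 ± 0.11, adjusted p = 0.00126). Cacna2d3 had 62.7, 53.4 and 74.6 in lesion ganglia, against 107, 105 and 106 in sham ganglia. All groups were separate, so the directions had to be the same in the 4 lower-numbered libraries and in the higher-numbered pair. That sameness is therefore no separate check. Of the pores, Cacna1b of N-type channels rose to 2257 ± 99.8, against 1306 ± 118 in sham ganglia (log2 change 0.79 ± 0.08, adjusted p = 5.5e-06), and Cacna1d of L-type channels rose by 0.61. Cacnb4, a beta subunit, fell by 0.59 ± 0.10, and Cacna1a, Cacna1c, Cacna1e and Cacna1h were not called. The call of Cacna2d2 was lost under the 24-library spread. Cacna1c was called without lesion replicate 1 or sham replicate 3 (adjusted p down to 0.0157).

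Channels of temperature, acid and purines gave 8 rises (22.9%, near the 20.9% of all genes tested) and 16 falls (45.7%, against 20.2%) among 35 tested. Of these channel genes 11 were not called, and under the 24-library spread 1 rose and 7 fell. Trpa1, the irritant receptor, had 174, 259 and 238 in lesion ganglia, against 492, 544 and 474 in sham ganglia (log2 change -1.18 ± 0.13, adjusted p = 1.9e-05). Trpm8, the cold receptor, had 90.6, 109 and 143 in lesion ganglia, against 211, 236 and 244 in sham ganglia (log2 change -1.03 ± 0.15, adjusted p = 1.7e-04). Trpv1, the capsaicin receptor, had 447, 518 and 668 in lesion ganglia, against 762, 724 and 713 in sham ganglia (log2 change -0.45 ± 0.12, adjusted p = 0.0107). The groups were separate for all of these. Ano3 (-0.91), Hcn2, a pacemaker channel of nociceptors (-0.54), and the acid-sensing Asic1 (-0.47) and Asic3 (-0.41) fell. P2rx3, the ATP-gated channel of nociceptors, rose by 0.39 ± 0.06, and Piezo2, the touch channel, was not called (0.11). Trpv1, Hcn2, Asic1, Asic3 and P2rx3 were not called under the 24-library spread. The temperature, acid and purine channels that rose numbered 4 without sham replicate 1 and 5 without lesion replicate 1 or 3.

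Many genes that mark classes of sensory neurons fell. Of 40 nociceptor and itch neuron genes, 22 fell, 6 rose and 12 were not called (median -0.42). Of 29 mechanoreceptor and proprioceptor genes, 19 fell, 3 rose and 7 were not called (median -0.56). With the 24-library spread 9 nociceptor and 11 mechanoreceptor genes fell, and 4 nociceptor and 2 mechanoreceptor genes rose. Mrgprd, a receptor of nonpeptidergic nociceptors, had 1781, 3054 and 2393 in lesion ganglia, against 4318, 4372 and 4369 in sham ganglia (log2 change -0.89 ± 0.17, adjusted p = 0.00425). Pvalb, parvalbumin of proprioceptors, had 401, 449 and 364 in lesion ganglia, against 929, 897 and 859.7 in sham ganglia (log2 change -1.15 ± 0.09, adjusted p = 9.7e-07). No lesion library reached a sham library in any of these. The itch receptors Mrgpra3 (-0.98) and Mrgprx1 (-1.45) fell, and so did Mafa (-1.37), Pou4f3 and Etv1 (-0.81), factors of large neurons. Against that direction, Prokr2, a prokineticin receptor, rose by 1.04, Mrgprf by 1.07 and Gfra3, the artemin receptor, by 0.78. Th, tyrosine hydroxylase of low-threshold C fibres, was not called (-0.27). The calls of Mrgpra3 and Mafa were lost under the 24-library spread, and that of Mrgprd between the lower-numbered libraries alone.

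The factors that set sensory neuron identity also fell in part, with 13 of 35 falling, 4 rising and 18 not called (median -0.20), and under the 24-library spread 4 rose and 4 fell. Isl1 had 964, 1090.5 and 930.3 in lesion ganglia, against 1573, 1632 and 1664 in sham ganglia (log2 change -0.71 ± 0.08, adjusted p = 1.2e-05), and its relative Isl2 fell by 0.56 ± 0.10. Pou4f1, the Brn3a factor of all sensory neurons, fell by 0.36 ± 0.08. Runx1, of nonpeptidergic nociceptors, was not called (0.11, adjusted p = 0.464). Hoxd10 was not called although its means differed, with 15.5, 132 and 84.4 in lesion ganglia, against 11.8, 16.1 and 20.6 in sham ganglia, where lesion replicate 1 lay among the sham libraries. The general neuron markers gave 5 rises and 8 falls of 18, a median of -0.17 and summed values of 239266 to 259485 in lesion and 275180.4 to 292400.3 in sham libraries, and with the 24-library spread 1 rose and 3 fell. Rbfox3, the nuclear marker NeuN, and Avil, advillin of sensory neurons, were not called (-0.15 and -0.09). The part of a lower neuron content in the falls of neuronal genes was not tested. Isl2 and Pou4f1 were not called under the 24-library spread. Hoxd10 was called without lesion replicate 1 (adjusted p down to 1.2e-05), and Rbfox3 was called without lesion replicate 2 (adjusted p down to 0.0245). The neuron markers that rose numbered 3 without lesion replicate 1 or sham replicate 2.

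Receptors of the GDNF family moved in different directions. The wider list of neurotrophic factors and receptors, which is not limited to the GDNF family, gave 11 rises and 11 falls of 39 tested. Of that list 17 were not called, and under the 24-library spread 8 rose and 7 fell. Gfra1, the co-receptor of GDNF, had 10565, 7445 and 8801 in lesion ganglia, against 3392, 3455 and 3316 in sham ganglia (log2 change 1.38 ± 0.10, adjusted p = 1.8e-06), and Ret, the signalling receptor of that family, rose by 0.48 ± 0.07, while Gfra4, the persephin receptor, fell by 0.60 ± 0.11. Gdnf itself rose at a low level, to 12.4, against 3.92 in sham ganglia. Ntrk2 and Ntrk3, the receptors of BDNF and neurotrophin 3, were not called (0.04 and 0.12). Bdnf fell by 0.45 ± 0.10, Fgf1 by 0.73 ± 0.08 and Ntf3, neurotrophin 3, fell too (-1.45 ± 0.30). Of the gp130 cytokine axis, which signals through Jak and Stat3, 13 of 21 were called as rises, 1 as a fall and 7 neither way (median 0.39). Clcf1, a cytokine of this axis, had 37.9, 18.4 and 26.0 in lesion ganglia, against 7.87, 5.12 and 2.29 in sham ganglia (log2 change 2.28 ± 0.41, adjusted p = 7.0e-04). Il6ra (0.88), the feedback gene Socs3 (0.56) and Il6st, which encodes gp130 (0.39), rose, while Il6, Il11 and Osm were below the expression minimum. In the fit with the 24-library spread 7 of these genes rose and 0 fell. The calls of Gfra4 and Socs3 were lost under the 24-library spread, and that of Socs3 between the lower-numbered libraries alone. Gdnf lost its call without lesion replicate 1 (adjusted p up to 0.0535).

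In the TGF beta, BMP and activin pathways 15 of 36 genes rose, 9 fell and 12 were not called, and under the 24-library spread 11 rose and 4 fell. Several activin genes rose, beside Acvr1c and Fst. Acvr1, a type I receptor, had 786, 533 and 641 in lesion ganglia, against 199, 189 and 252 in sham ganglia (log2 change 1.60 ± 0.14, adjusted p = 8.2e-06), and Inhbb, an activin subunit, rose by 1.45 ± 0.18. Tgfbr1 and Tgfbr2 each rose by 0.67. Id1 (-0.79) and Id2 (-0.59), direct targets of BMP signals, fell. So did Nog, the BMP antagonist noggin (-1.10), Bmpr1b (-0.59) and Smad7, an inhibitory Smad (-0.69). Fstl1, a follistatin-like protein, fell to 29334, 34586 and 29914 in lesion ganglia, against 51144, 55353 and 52002 in sham ganglia (log2 change -0.76 ± 0.08, adjusted p = 6.8e-06). Id1 and Bmpr1b were not called under the 24-library spread, and Smad7 was not called between the lower-numbered libraries alone.

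Injury and death signals were mixed. Of 44 genes of DLK and JNK signalling, apoptosis and axon survival, 21 rose, 7 fell and 16 were not called (median 0.28), and under the 24-library spread 14 rose and 2 fell. Hrk, a proapoptotic BH3 protein induced by JNK, had 312, 205 and 228 in lesion ganglia, against 32.5, 43.9 and 44.2 in sham ganglia (log2 change 2.59 ± 0.18, adjusted p = 5.0e-07). The BH3 genes Bcl2l11 (0.85), Bbc3 (0.73) and Bmf (0.64) rose as well, and so did Casp6 (1.01) and Apaf1 (0.94), parts of the caspase cascade. The prosurvival gene Bcl2l2 fell (-0.33), Mcl1 rose (0.33) and Bcl2l1 was not called (-0.17). Map3k12, which encodes DLK, was not called (-0.07), and Mapk10, the neuronal JNK, fell by 0.70 ± 0.08. Sarm1, which drives axon degeneration, rose by 0.49 ± 0.08, and its opponent Nmnat2 was not called (0.01). The calls of Bbc3, Bmf, Bcl2l2 and Mcl1 were lost under the 24-library spread. The DLK, apoptosis and survival genes that fell numbered 3 without lesion replicate 1.

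Stress response genes moved in both directions. Of 41 genes of the unfolded protein and integrated stress responses, 18 rose, 7 fell and 16 were not called, and under the 24-library spread 13 rose and 1 fell. Rises included known targets of Atf4, Chac1, a glutathione-degrading enzyme (549, 377 and 377 in lesion ganglia, against 117, 127 and 146 in sham ganglia, 1.72 ± 0.15), Sesn2 (1.39), Trib3 (1.00) and the amino acid transporter Slc7a5 (1.05). Atf4 rose by 0.44 ± 0.08. Falls included chaperones of the endoplasmic reticulum, Hspa5, known as BiP (-0.31), and Pdia6 (-0.43). Of 21 heat shock and chaperone genes of the cytosol and mitochondria, 12 fell, 3 rose and 6 were not called (median -0.25), and under the 24-library spread 2 rose and 4 fell. Hspa8, the constitutive Hsc70, fell by 0.46 ± 0.07, and so did the mitochondrial chaperonins Hspd1 (-0.48 ± 0.08) and Hspe1 (-0.64 ± 0.13). Hspb1, a small heat shock protein that protects injured sensory neurons, rose by 0.67 ± 0.19. Hspa5 and Hspe1 were not called under the 24-library spread. Hspa5 lost its call without sham replicate 1 or 2 (adjusted p up to 0.0897).

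Of 41 tubulins, stathmins and microtubule-associated proteins, 20 rose, 9 fell and 12 were not called, and under the 24-library spread 10 rose and 4 fell. Tubb6, a beta tubulin, had 3242, 1981 and 2643 in lesion ganglia, against 498, 479.6 and 529 in sham ganglia (log2 change 2.35 ± 0.15, adjusted p = 3.6e-06). Stmn4 rose by 2.45 ± 0.28, Crmp1, a collapsin response mediator, by 1.19 ± 0.08, and Tubb2b, a tubulin of developing neurons, by 0.83 ± 0.09. Tuba1a, the tubulin of growing axons, had 101066, 85972 and 84493 in lesion ganglia, against 74595, 73455 and 65058 in sham ganglia, a log2 change of 0.35 ± 0.08 on a gene of high level. Map1b (0.26 ± 0.08) and Tubb3 (0.34 ± 0.09) were further small changes of that kind, and both were among the 10 largest differences of group means. Tuba4a (-0.77), Map7d2 (-0.84) and Tppp3 (-0.56) fell. Mapt, tau, and Dpysl2 were not called (0.06 and -0.09). The calls of Tuba1a, Map1b, Tubb3 and Tppp3 were lost under the 24-library spread, and that of Tubb3 between the lower-numbered libraries alone. Map1b lost its call without lesion replicate 1 or sham replicate 1 (adjusted p up to 0.111).

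Among neurofilaments and other intermediate filaments, 4 of 12 genes tested rose, 5 fell and 3 were not called (median 0.06), and under the 24-library spread 2 rose and 2 fell. All 3 neurofilament subunits were among the falls. Nefl had 60559, 62147 and 60851 in lesion ganglia, against 101370.0, 106543 and 95977 in sham ganglia (log2 change -0.73 ± 0.07, adjusted p = 3.4e-06). Nefh had 47849.7, 50001 and 40539 in lesion ganglia, against 78822, 87527 and 76306 in sham ganglia (log2 change -0.81 ± 0.09, adjusted p = 1.0e-05). Nefm had 70318, 66909.6 and 54283 in lesion ganglia, against 81181, 97298 and 82604 in sham ganglia (log2 change -0.45 ± 0.10, adjusted p = 0.00355). Nefl and Nefh had the largest differences of group means of all called genes, and their lesion values were all below the sham values. Prph, peripherin of small neurons, fell by 0.26 ± 0.08. Gfap, a filament of activated glia, rose to 166, 61.8 and 75.7 in lesion ganglia, against 23.6, 19.7 and 20.6 in sham ganglia (log2 change 2.06 ± 0.31, adjusted p = 3.0e-04). Of 42 actin regulators of the growth cone, 24 rose, 3 fell and 15 were not called (median 0.24), and under the 24-library spread 16 rose and 1 fell. Rnd1, a small GTPase, rose by 1.94 ± 0.22, Myo10, the filopodial myosin, by 1.74 ± 0.13 and Fscn1, the bundling protein fascin, by 1.66 ± 0.12. Actb rose by 0.45 ± 0.07, while Cfl1, cofilin, was not called (-0.13). Nefm and Prph were not called under the 24-library spread. Prph lost its call without sham replicate 1 (adjusted p up to 0.0999). The intermediate filament genes that rose numbered 2 without lesion replicate 1 or 3 or sham replicate 3, and intermediate filament genes that fell numbered 3 without sham replicate 1, and actin regulators that fell numbered 1 without sham replicate 1.

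Genes of the presynaptic terminal gave 12 rises and 17 falls of 47, with 18 not called (median -0.10), and under the 24-library spread 6 rose and 7 fell. A pair of related vesicle SNAREs moved in opposite directions. Vamp1 fell to 8356, 9245 and 7392 in lesion ganglia, against 15254, 16856 and 15711 in sham ganglia (log2 change -0.94 ± 0.08, adjusted p = 2.3e-06). Vamp2, its relative, rose to 7559, 8899 and 6562 in lesion ganglia, against 5168, 4907 and 6031 in sham ganglia (log2 change 0.51 ± 0.11, adjusted p = 0.00315). Neither pair of groups overlapped. Snap25, a SNARE of the terminal membrane, fell by 0.71 ± 0.11 and Sv2b by 0.90 ± 0.07, and Doc2b, a calcium sensor of release, rose by 1.70 ± 0.21. Of 29 glutamate and GABA receptor genes, 15 fell, 4 rose and 10 were not called (median -0.36), and under the 24-library spread 1 rose and 7 fell. Gabrb2, a subunit of the GABA-A receptor, fell by 1.09 ± 0.09, and Gria2, an AMPA receptor subunit, fell by 0.94 ± 0.10. Gabrg1 (0.82) and Grik3, a kainate receptor subunit (0.67), were among the rises. The call of Gabrg1 was lost under the 24-library spread. The glutamate and GABA receptors that rose numbered 2 without lesion replicate 1 or sham replicate 2.

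Axon guidance genes gave 29 rises and 13 falls of 71, with 29 not called (median 0.23), and under the 24-library spread 15 rose and 2 fell. Sema6a, a transmembrane semaphorin, had 3174, 2179 and 2584 in lesion ganglia, against 236, 273 and 323 in sham ganglia (log2 change 3.24 ± 0.14, adjusted p = 4.3e-07). Its receptor Plxna4 had 5449, 4856 and 5664 in lesion ganglia, against 1936, 2211 and 2515 in sham ganglia (log2 change 1.27 ± 0.09, adjusted p = 8.1e-07). Epha3 and Ephb2, receptors of ephrins, rose by 1.72 ± 0.27 and 1.37 ± 0.15, and Rtn4, the growth inhibitor Nogo, by 0.78 ± 0.08. The falls were led by Epha7 (-0.69), Ntng1, a netrin of the cell surface (-0.67), and Sema7a (-0.62). Nrp1, a semaphorin co-receptor, was not called (-0.13), while Nrp2 rose (0.69). Epha7 was not called under the 24-library spread. The guidance genes that fell numbered 7 without sham replicate 3.

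Most called genes of cell adhesion and the matrix were rises. Of 40 integrin, laminin and thrombospondin genes, 20 rose, 0 fell and 20 were not called (median 0.29), and under the 24-library spread 13 rose and 0 fell. Beside Itga7, Lama5, a laminin chain, rose to 118, 90.2 and 132 in lesion ganglia, against 27.6, 30.0 and 28.1 in sham ganglia (log2 change 1.93 ± 0.18, adjusted p = 3.9e-06). Itga5, the fibronectin receptor, and its ligand Fn1 rose by 1.49 ± 0.19 and 1.35 ± 0.11, and Thbs1, a thrombospondin, by 1.36 ± 0.31. Of 55 collagen and matrix protease genes, 35 rose, 3 fell and 17 were not called (median 0.49), and under the 24-library spread 22 rose and 0 fell. Loxl2, a collagen crosslinking enzyme, had 1152, 769.8 and 815 in lesion ganglia, against 129.9, 109.7 and 122 in sham ganglia (log2 change 2.89 ± 0.14, adjusted p = 8.1e-08). Mmp16, a membrane metalloprotease, had 1418, 960.2 and 1113 in lesion ganglia, against 162, 148 and 158 in sham ganglia (log2 change 2.87 ± 0.12, adjusted p = 2.0e-08). Adam8, a membrane protease, rose by 2.60 ± 0.18, and Plaur and Plau, the urokinase receptor and urokinase, by 2.06 ± 0.16 and 1.15 ± 0.12. Col5a3 rose by 1.99 ± 0.12, and Col1a1, the main collagen of fibroblasts, by 0.51 ± 0.13. Fibroblast and meningeal markers moved with these. Of 16 of them 8 rose and 0 fell, while under the 24-library spread 0 rose and 0 fell, and their sum ran from 11273 to 13652 in lesion and from 8665 to 11193 in sham libraries. Their part in the matrix genes was not tested. The call of Col1a1 was lost under the 24-library spread and between the lower-numbered libraries alone. Thbs1 lost its call without lesion replicate 2 or sham replicate 1 or 3 (adjusted p up to 0.097). The collagen and protease genes that fell numbered 1 without sham replicate 3, and fibroblast markers that rose numbered 5 without lesion replicate 2 or sham replicate 2.

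Csf1, the growth factor of macrophages, rose to 3612, 2276 and 3077 in lesion ganglia, against 368, 393 and 459.9 in sham ganglia (log2 change 2.85 ± 0.15, adjusted p = 1.6e-06). Its receptor Csf1r had 583, 456 and 576 in lesion ganglia, against 199.8, 175 and 189.8 in sham ganglia (log2 change 1.51 ± 0.11, adjusted p = 7.0e-07). Of 20 macrophage markers 19 were tested, and 17 rose, 0 fell and 2 were not called (median 1.29). Their summed value ran from 5123 to 7227 in lesion libraries and from 2519 to 2703 in sham libraries, a ratio of means of 2.38. C1qa (1.24), Cx3cr1 (1.67), Trem2 (1.97), Emr1, the F4/80 antigen (1.32), and Itgam (1.32) rose. Cd163, a scavenger receptor of resident macrophages, was not called and varied within the lesion group, with 22.4, 174 and 269 in lesion ganglia, against 123, 123 and 134 in sham ganglia. It was high in lesion replicates 2 and 3 and lowest of all in lesion replicate 1. Under the 24-library spread 13 of the markers rose and 0 fell. Summed T and NK cell markers were low, at 59.6 to 71.8 in lesion and 31.5 to 37.4 in sham libraries. Cd3e of T cells averaged 2.40 in lesion and 1.28 in sham ganglia. Summed neutrophil markers ran from 788 to 1455 in lesion and from 789 to 917 in sham libraries. Summed mast cell markers ran from 1445 to 1523 in lesion and from 1293 to 1452 in sham libraries. Of 8 tested neutrophil markers 1 rose, and with the 24-library spread 0 rose and 0 fell. C1qa was not called between the lower-numbered libraries alone. Cd163 was called without lesion replicate 1 (adjusted p down to 0.00351). The neutrophil markers that rose numbered 4 without lesion replicate 1.

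**Figure D3:**
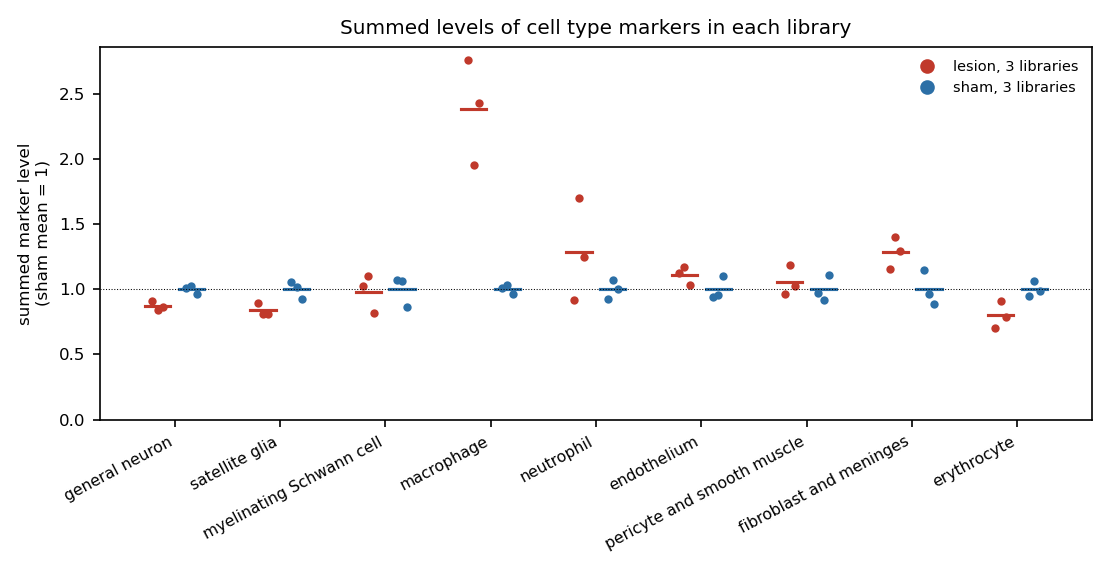
Summed normalized values of cell type marker lists in each library, divided by the sham mean of the list. Points are libraries, 3 lesion (red, left) and 3 sham (blue, right), and lines are group means. Macrophage markers stand at 2.38 times the sham mean on average in lesion libraries, while the means of neuron (0.87), satellite glia (0.84), endothelial (1.11) and erythrocyte (0.80) lists lie nearer to 1.

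Of 52 chemokine, interleukin and TNF family genes, 29 rose, 1 fell and 22 were not called (median 0.64), and under the 24-library spread 19 rose and 0 fell. Ccr1 (1.85) and Ccr2 (1.17), chemokine receptors of myeloid cells, rose, and so did Il17ra (2.19), Tnfrsf12a, the receptor of TWEAK (1.92), and Tnfrsf1b (1.71). Ccl2, the monocyte attractant, was not called, at 43.3, 25.0 and 20.8 in lesion ganglia, against 14.8, 20.5 and 17.8 in sham ganglia (adjusted p = 0.0863), and Tnf, Il1b and Ccl3 were below the expression minimum. Of 25 complement and coagulation genes, 14 rose, 3 fell and 8 were not called (median 0.45), with rises of C3 (1.74), C3ar1 (1.43) and C4b (1.17), and the falls were Cd55, a complement inhibitor (-0.87), F2r (-0.76) and Clu (-0.38). Of 40 lysosome and phagocytosis genes, 15 rose, 6 fell and 19 were not called. Trem2, the protease Ctss (1.40) and Mrc1 (1.29) led the rises, and Ctsb (0.09) and Ctsd (0.07), cathepsins of all cells, were not called. With the 24-library spread 8 complement and 9 lysosomal genes rose, and 2 and 2 fell. The part of a higher macrophage content in these lists was not tested. The calls of Ccr2, C3, Clu and Mrc1 were lost under the 24-library spread. Ccl2 was called without lesion replicate 3 (adjusted p down to 0.0413). The chemokine and cytokine genes that fell numbered 3 without lesion replicate 2.

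Interferon response genes were mostly not called, 44 of 54, with 9 rises and 1 fall (median 0.10), and under the 24-library spread 3 rose and 0 fell. Rises included genes of antigen presentation, Cd74 (0.95 ± 0.11), H2-Ab1 (0.89 ± 0.14) and H2-Aa (0.78 ± 0.14), together with Irf8, a factor of myeloid cells. Sham replicate 2 stood apart for antiviral genes. Ifit1 had 606, 468 and 382 in lesion ganglia, against 631, 2474 and 593 in sham ganglia (log2 change -1.03 ± 0.68, adjusted p = 0.299), and Usp18 had 44.1, 18.4 and 23.7 in lesion ganglia, against 23.6, 106 and 29.8 in sham ganglia. In both, sham replicate 2 was the highest of the 6 libraries and the other sham libraries lay near or within the lesion range. Oasl2 and Ifi44 were not called either (-0.38 and -0.66). H2-Aa was not called under the 24-library spread. The interferon and antigen presentation genes that rose numbered 14 without sham replicate 2.

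Glial genes gave no single direction. Of 18 myelinating Schwann cell markers, 1 rose, 0 fell and 17 were not called, and with the 24-library spread 1 rose and 0 fell. Egr2, the myelin regulator, rose by 0.47 ± 0.10. Of 9 non-myelinating Schwann cell markers, which include Gap43 and Gfap, 6 rose, 1 fell and 2 were not called (median 0.44). The sum of these markers ran from 44494 to 46412 in lesion and from 37411 to 37998 in sham libraries. Gap43, named above as a growth cone protein, averaged 11375 in lesion and 4323 in sham ganglia within that sum. The part of neurons in the sum was not tested. Of 16 satellite glia markers, 4 rose, 6 fell and 6 were not called (median -0.18), and with the 24-library spread 2 rose and 3 fell. Glul, glutamine synthetase, rose to 11199, 9352 and 10507 in lesion ganglia, against 6690.3, 7251 and 6999 in sham ganglia (log2 change 0.57 ± 0.08, adjusted p = 7.1e-05), while S100b fell to 8390.3, 8475 and 7158 in lesion ganglia, against 13238, 14386 and 11856 in sham ganglia (log2 change -0.72 ± 0.09, adjusted p = 3.0e-05). Kcnj10, the Kir4.1 channel of satellite glia, was not called (0.05), and Gja1, connexin 43, fell by 0.32 ± 0.08. Of 18 genes of the repair Schwann cell, 8 rose, 3 fell and 7 were not called (24-library spread, 8 rose and 1 fell), with Runx2 (1.34) and Ncam1 (0.74) among the rises, Shh (-0.13) and Ngfr, the p75 receptor (-0.12), not called and Olig1 near 0. Sox9 and Aldh1l1, which mark astrocytes in the cord, rose by 1.99 ± 0.18 and 1.57 ± 0.19, and Aqp4, an aquaporin, fell by 0.98 ± 0.10. The call of Gja1 was lost under the 24-library spread and between the lower-numbered libraries alone. Ngfr was called without lesion replicate 2 (adjusted p down to 0.0374). The repair Schwann cell genes that fell numbered 1 without lesion replicate 1 or sham replicate 2 or 3, and myelin markers that rose numbered 6 without lesion replicate 3.

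Genes of oxidative phosphorylation were lower after lesion. Of 50 tested, 0 rose, 39 fell and 11 were not called, with a median of -0.52. Ndufa1, a subunit of complex I, had 67.3, 48.4 and 73.4 in lesion ganglia, against 129.9, 201 and 103 in sham ganglia (log2 change -1.15 ± 0.23, adjusted p = 0.0023). Ndufa5 (-0.95) and Atp5h, of the ATP synthase (-0.93), followed. Uqcrc1, of complex III, and Atp5b, the catalytic subunit of the synthase, were not called (-0.02 and -0.18). The size of this fall differed with the bracket numbers, as the median of the list was -0.70 between the 4 lower-numbered libraries and -0.16 between the higher-numbered pair, in which 41 of 50 genes were lower in lesion. The length of a gene moved with this. Genes with a summed exon length under 1 kb had a median log2 difference of -0.33 between the lower-numbered libraries and of -0.03 in the higher-numbered pair, and genes over 6 kb had 0.09 between the lower-numbered libraries and 0.01 in the higher-numbered pair. The median exon length was 1.93 kb in the list and 4.48 kb over all genes. With the length trend removed from each library, a setting chosen after seeing the data, 31 of the 50 genes fell, and under the 24-library spread 22 fell. Atp5b was called without lesion replicate 3 (adjusted p down to 0.0213).

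**Figure D4:**
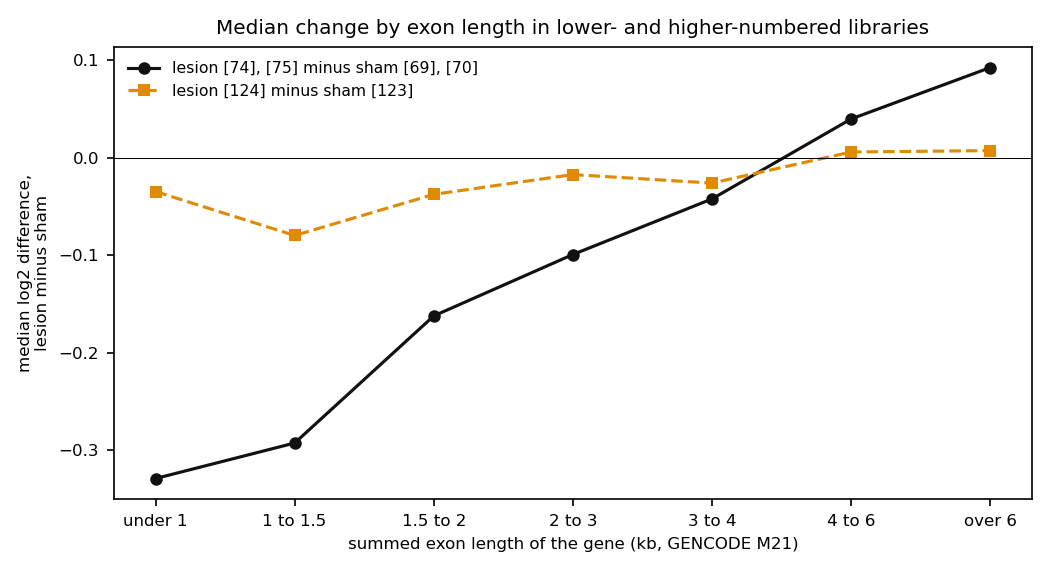
Median log2 difference, lesion minus sham, of tested genes in bins of summed exon length (kb). Circles compare the lower-numbered libraries (2 lesion, 2 sham) and squares the higher-numbered pair (1 lesion, 1 sham). Short genes lie below 0 in the lower-numbered libraries, down to -0.33, and between -0.08 and 0.01 in the higher-numbered pair.

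The cytosolic ribosomal protein genes, also short (median 2.01 kb), differed in sign between the library numbers. In the lower-numbered libraries 58 of 61 were lower in lesion (median -0.42), and in the higher-numbered pair 56 of 61 were higher (median 0.26). In the fit over all 6 libraries 0 rose, 4 fell and 57 were not called, and under the 24-library spread 0 rose and 1 fell, so no direction is given for this family. Glycolysis and hypoxia genes gave 7 rises and 13 falls of 28, with 8 not called, and under the 24-library spread 3 rose and 9 fell. The largest rises were those of Hk2, a hexokinase (1.13 ± 0.15), and Slc2a1, the glucose transporter GLUT1 (0.87 ± 0.08). Among the falls were Ldhb (-0.91), Aldoc (-0.83) and Bnip3, a mitophagy receptor (-0.79), and Eno2, enolase of neurons, was not called (-0.07). Cholesterol synthesis genes were mostly not called, 17 of 26, with 2 rises and 7 falls, and under the 24-library spread 2 rose and 3 fell. Hsd17b7, a step of that pathway, rose by 1.26 ± 0.11. The ribosomal protein genes that fell numbered 0 without sham replicate 1 or 2, 1 without lesion replicate 1, 2 without lesion replicate 2, 12 without sham replicate 3 and 24 without lesion replicate 3, and glycolysis genes that rose numbered 4 without lesion replicate 1 or sham replicate 1.

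Gch1, the first enzyme of tetrahydrobiopterin synthesis, rose to 99.1, 85.2 and 102 in lesion ganglia, against 58.1, 72.4 and 61.4 in sham ganglia (log2 change 0.57 ± 0.16, adjusted p = 0.00951), and it was the single rise among 7 genes of the pathway. Spr (-0.33), Qdpr (-0.39) and Pcbd1 (-0.41), later enzymes of its synthesis and recycling, were among 4 falls, and Pts (-0.22) and Pcbd2 (-0.42) were not called. Arginine, polyamine and one-carbon genes gave 5 rises and 5 falls of 17, with Odc1, the first enzyme of polyamine synthesis, at 848, 661 and 771 in lesion ganglia, against 398, 431 and 368 in sham ganglia (log2 change 0.92 ± 0.10, adjusted p = 1.2e-05). Sat1, which breaks polyamines down, fell by 0.47 ± 0.08. Of 31 oxidative stress genes, 10 fell, 4 rose and 17 were not called. Srxn1, sulfiredoxin, whose upstream AP-1 letters are printed above, rose to 24649, 18539.7 and 21558 in lesion ganglia, against 8273, 8311 and 8193 in sham ganglia (log2 change 1.38 ± 0.09, adjusted p = 3.6e-07). Txnrd1 (0.56) and Slc7a11 (0.87) rose too, while Nqo1 (-0.67), Gclc (-0.41) and Gclm (-0.36), further targets of the factor encoded by Nfe2l2, fell and Hmox1 was not called (-0.24). Gpx4 (-0.83) and Mt3 (-0.94) led the falls. In the fit with the 24-library spread 0 tetrahydrobiopterin genes rose and 1 fell, 3 genes of the polyamine list rose and 2 fell, and 3 oxidative stress genes rose and 6 fell. Gch1, Spr, Pcbd1 and Nqo1 were not called under the 24-library spread, and Gch1 and Pcbd1 were not called between the lower-numbered libraries alone. Pts was called without lesion replicate 1 (adjusted p down to 0.0478). The polyamine-list genes that fell numbered 2 without sham replicate 2 and 3 without lesion replicate 1 or sham replicate 1 or 3.

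Few cell cycle genes changed. Of 42 tested 2 rose, 1 fell and 39 were not called (median 0.01), and under the 24-library spread 1 rose and 0 fell. Mki67, the proliferation antigen, had 214, 322 and 232 in lesion ganglia, against 217, 196 and 149 in sham ganglia (log2 change 0.44 ± 0.17, adjusted p = 0.0575), and Pcna was not called either (log2 change -0.12 ± 0.10, adjusted p = 0.336). Prc1, a protein of the cytokinetic spindle, rose by 1.79 ± 0.16. Of 19 clock genes 12 rose, 1 fell and 6 were not called (median 0.44), and under the 24-library spread 7 rose and 0 fell. Per1 had 497, 483 and 544 in lesion ganglia, against 221, 158 and 307 in sham ganglia (log2 change 1.20 ± 0.20, adjusted p = 0.00145), and Per3 and Dbp rose by 1.23 ± 0.14 and 1.08 ± 0.13. Arntl, the clock activator BMAL1, was not called (-0.13), and the hours of collection are not given in the labels. Of 33 chromatin genes 14 rose, 1 fell and 18 were not called (median 0.34), and under the 24-library spread 11 rose and 1 fell. Tet3, which oxidizes methylated DNA, had 1528, 1316 and 1448 in lesion ganglia, against 545, 560.0 and 646 in sham ganglia (log2 change 1.29 ± 0.09, adjusted p = 4.1e-07). Kdm6b, a histone demethylase, rose by 0.84 ± 0.12 and Hdac11 fell by 0.57 ± 0.10, while Hdac5, a deacetylase exported from the nucleus on injury, was not called (-0.35). In the retinoic acid pathway 5 of 21 rose (23.8%, against 20.9% of all genes tested) and 2 fell (24-library spread, 2 rose and 1 fell). The degrading enzyme Cyp26a1 had 44.1, 11.7 and 38.7 in lesion ganglia, against 2.95, 0.731 and 12.0 in sham ganglia, where lesion replicate 2 lay at the level of sham replicate 3. Cyp26a1 lost its call without lesion replicate 3 or sham replicate 1 (adjusted p up to 0.0721). Mki67 was called without lesion replicate 1 or sham replicate 1 (adjusted p down to 0.0272), and Hdac5 was called without sham replicate 2 (adjusted p down to 0.0335). The retinoic acid genes that rose numbered 3 without lesion replicate 3 or sham replicate 1.

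**Figure D5:**
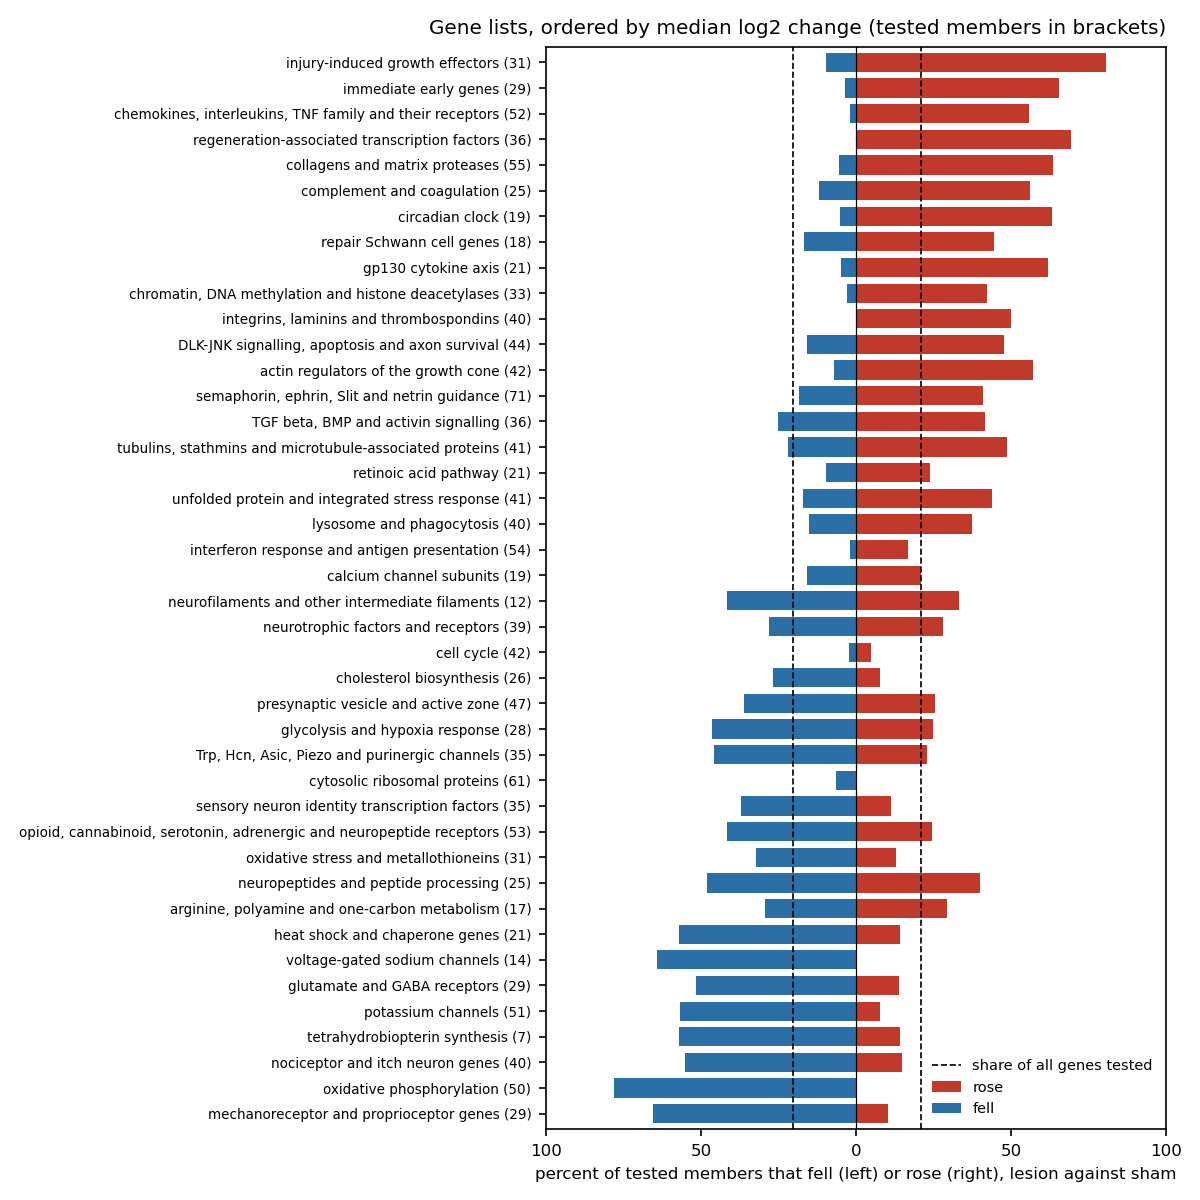
Percent of tested members of each of 42 gene lists that fell (blue, left) or rose (red, right), lesion against sham, ordered by the median log2 change of the list, with the number tested in brackets. Dashed lines mark the shares over all genes tested, 20.2% falling and 20.9% rising. Growth effectors, immediate early genes, chemokine and cytokine genes and regeneration factors stand at the top, and mechanoreceptor, oxidative phosphorylation and nociceptor genes at the bottom.

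The leading genes also had levels in the other groups of the series, which are given as a description because those groups differ in age, tissue state and depth. Atf3 averaged 10153 ± 544 at 6 h and 8231 ± 518 at 36 h in culture, near the lesion mean of 9207, and 37.7 ± 13.2 at E12.5. Sprr1a averaged 29.8 ± 15.8 at 6 h and 2979 ± 397 at 36 h, below the lesion mean of 19137. Npy averaged 23.2 ± 15.2 at 36 h, against 428 after lesion and 13.0 in sham ganglia. Gal averaged 4.53 ± 1.42 at E12.5 and 687 ± 179 at 36 h in culture, against 1159 after lesion and 107 in sham ganglia.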

How the data were processed

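The submitters' processing notes name TopHat and the build mm10, with the counting tool and the scaling both not given in the sources used here. Each value that the authors deposited is a normalized signal per gene. That each is a read count divided by 1 factor per library was read from the values: in the 6 libraries 84360 of 84360 values of up to 1000 reads were whole multiples of the library's smallest step (tolerance 0.1 of a step). The totals of these recovered reads are the depths, 7.45 to 21.8 M. Values were taken as log2(value + 1), genes were kept where at least 3 of the 6 libraries reached 10, and lesion was set against sham in limma 3.58.1 (R 4.3.3, trend and robust eBayes), with Benjamini-Hochberg adjustment over all 14556 genes tested and a threshold of 0.05. A fold on this scale understates changes of low genes. The script was tested on simulated data. edgeR 4.0.16 and DESeq2 1.42.0 were run on the recovered whole reads as alternatives. A gene's exon length and position come from GENCODE M21, which matched 19529 of 20782 symbols. Upstream sequences are from RefSeq.

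The members and gene lists were chosen with earlier results of these data known. Named genes are the 15 largest rises and falls among called genes with separate groups and a higher group mean of at least 100 (uncharacterised symbols aside), the 10 called genes with the largest difference of means, up to 3 rises, 3 falls and 2 uncalled genes of each list (called ones with a higher group mean of at least 20), members of lists of up to 20 genes, and the Cacna2d genes. Genes of which nothing was to be said were left out. Further list members named in the text were chosen after their values were seen. Most alternatives changed 1 choice at a time. The trend and robust settings of limma were dropped together. The edgeR and DESeq2 settings used the recovered reads with their own scaling, so more than the test changed. The choices were the pseudocount (0.5 or 5), the filter (none, or 50), the scaling, the test and the spread. Further settings took the library numbers as a term, used the 4 lower-numbered libraries alone or left out each library.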

Additional observations from a re-analysis of the deposited data

How the results depend on the processing

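With 1 spread estimated over all 24 libraries, 1541 genes rose and 1052 fell in place of 3043 and 2947, and the cause was not tested. In the other settings run on all genes the number that rose stayed between 2397 and 3101 and the number that fell between 2166 and 3256, and 0 genes were called in the opposite direction. With 1 library left out, 2397 to 2896 rose and 2166 to 2924 fell. On the whole reads recovered from the values, edgeR called 3101 rises and 2970 falls and DESeq2 2832 and 2568, and quantile normalization gave 2832 and 3256. With the trend over exon length removed from each library, an alternative chosen after seeing the data, 3039 rose and 2940 fell, of which 2782 and 2593 were among the original calls. Of 285 named genes that were called, 224 kept the call in all settings run and 37 lost it in the 24-library spread alone. Col1a1, Egr1, Hspa5, Map1b, Oprk1, Prph, Scn10a, Scn9a and Trpv1 lost it in limma without trend and robust settings, Map1b, Prph and Scn10a after quantile normalization, and Dusp5, Map1b, Pcbd1 and Prph with the length trend removed. Of 51 named genes that were not called, 19 were called in at least 1 setting. The change of Cd163, not called, ran from -0.99 to 0.77 with 1 library left out, and without lesion replicate 1 it was a called rise. No paired analysis was possible because the labels give these libraries no replicate numbers shared between groups. With the lower and higher bracket numbers as a term, 2905 rose and 2776 fell. Lesion replicate 2 had the fewest reads, so genes of low level were measured least precisely there.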

Other observations

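Sprr1a belongs to the epidermal differentiation complex of chromosome 3, a block of genes of the skin barrier. The region was chosen after its values were seen. Of 47 genes in the table with a start within 1.2 Mb of Sprr1a (mm10, GENCODE M21), 8 passed the expression minimum, and 8 of these rose in the limma fit. A gene of this region that is silent in sham ganglia could pass only through its lesion values, so that count is a description. Lelp1, a late cornified envelope-like gene, had 27.1, 20.0 and 24.3 in lesion ganglia, against 0, 0.731 and 0 in sham ganglia. Sprr2i, below the minimum, had 18.6, 5.01 and 6.94 in lesion ganglia and was at 0 in the sham libraries. Sprr2a1 and Sprr2a2, near-identical copies with equal values, had 51.1, 33.4 and 39.3 in lesion ganglia, against 0, 3.66 and 4.59 in sham ganglia. Both copies are counted among the 8 rises, although their values are the same. Prr9 had 8.51, 11.7 and 12.1 in lesion ganglia, against 0.984, 0 and 0.573 in sham ganglia. Lor, loricrin of the cornified envelope, had 6.19, 6.68 and 6.36 in lesion ganglia, against 6.89, 5.12 and 1.72 in sham ganglia, and Flg2, Hrnr, Rptn and Crnn of the same block were at or near 0 in all 6 libraries. S100a11, at an edge of the block, rose by 1.42 ± 0.15. Away from this region, 3 further genes near 0 in sham ganglia, chosen after their values were seen, passed the minimum through their lesion values alone. Tmprss11f had 41.0, 23.4 and 50.9 in lesion ganglia, against 0, 0 and 1.15 in sham ganglia, Lipn had 62.7, 38.4 and 60.7 in lesion ganglia, against 0, 1.46 and 0 in sham ganglia, and Anxa10 had 78.9, 50.1 and 60.1 in lesion ganglia, against 2.95, 0 and 4.59 in sham ganglia.

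Further large rises lay outside the lists and were named after their values were seen. En1, Chrna5, Cyp24a1 and Pkd2l1 were under 10 in all sham libraries. They passed the minimum only through their lesion values and could be called only as rises. En1, a homeobox gene, had 40.2, 16.7 and 19.7 in lesion ganglia, against 0.984, 0 and 0.573 in sham ganglia. Chrna5, a nicotinic subunit, had 82.0, 58.4 and 53.8 in lesion ganglia, against 4.92, 5.85 and 8.03 in sham ganglia. Cyp24a1, which breaks down vitamin D, had 34.1, 26.7 and 42.2 in lesion ganglia, against 0.984, 0.731 and 1.72 in sham ganglia. Pkd2l1, a channel of the polycystin family, had 31.7, 30.1 and 27.8 in lesion ganglia, against 2.95, 1.46 and 0.573 in sham ganglia. Xist, from the inactive X chromosome, rose by 0.67 ± 0.08 (adjusted p = 2.5e-05), with 10088, 10294 and 8619.6 in lesion ganglia, against 5841, 5830.0 and 6463 in sham ganglia.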
